A study of Homo sapiens with 9 samples.

Results

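The comparison set 1 BrU-seq library of an STK19-rescued line against 1 library of its STK19 knockout parent, both labelled 16 h after UV-C. Its members were the transcription start site (TSS) identifiers present in both library files, which came to 8639 of the 9805 identifiers found in any of the 9 libraries of the series. The KO file at 16 h held 8783 identifiers and the rescue file 9222. BrU-seq measures nascent RNA: bromouridine is given briefly, enters the transcripts being made at that time, and lets them be pulled down with an antibody for sequencing. The cells were RPE1, an immortalised human retinal pigment epithelium line, and all of them carried the background written as RPE1 iCas9 p53/puro-dKO in the labels. On that background the WT line kept STK19, the KO line was STK19-KO, and the rescue line was the knockout with an STK19-TY transgene (STK19-KO+STK19-TY). The 16 h libraries of KO, rescue and WT came from cells given 12 J/m2 of UV-C and a 30 min pulse with 2 mM bromouridine that began 15.5 h later. The mock libraries of the same lines had the pulse without UV-C. The sources used here give neither the promoter of the transgene nor whether each line was 1 clone.

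UV-C leaves lesions in DNA that stall RNA polymerase II. Transcription-coupled repair clears such lesions from the transcribed strand and lets the polymerase run on to the ends of genes, and STK19 is known as a factor of this pathway that acts on the stalled polymerase beside CSA and TFIIH. While lesions remain, nascent RNA is found close to start sites and is scarce far into genes, so the position of signal along a gene shows how far transcription had recovered. The series asks what STK19 contributes to that recovery, and the rescue line asks whether putting STK19 back into the knockout changes it.

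Each group was 1 library, so no difference had a replicate check and no p-value was computed. The difference between the mock libraries of KO and rescue is given beside each main difference as the one that these lines showed without UV-C, and the WT library at 16 h as the reference for full recovery. Signal was coverage in bins of 200 bp, in whole multiples of a step whose inverse gives the relative depth of a library. The rescue library at 16 h was 3.41 times deeper than the KO library at 16 h, the KO mock library was 2.10 times deeper than the rescue mock library, and the WT library at 16 h was 5.05 times deeper than that of KO. The highest summed signal of the 9 libraries was 1.14 times the lowest, so the values are relative within a library, and a loss of total nascent RNA would not appear in them. None of the 9805 identifiers matched the reference table, so gene names, gene ends, marker genes and STK19 itself were not analysed here.

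In the rescue line, more of the signal of long transcribed regions lay far from the start than in the knockout. These regions were 369 long-span identifiers with mock signal in all 20 windows of 5 kb from the TSS to 100 kb, chosen on the 3 mock libraries alone. Their far signal, the mean per bin from 25 to 100 kb, had a median of 2.08 in KO, 3.14 in rescue and 4.25 in WT at 16 h. In mock it was 3.46 in KO, 3.15 in rescue and 2.82 in WT. At 16 h the knockout was thus the lowest of the 3 lines and WT the highest, whereas in mock that order was turned around. Per identifier, the median log2 ratio of rescue over KO was 0.44 at 16 h, a 1.36-fold difference on the scale of signal plus 0.1, with quartiles of 0.11 and 0.77. The far signal was higher in rescue for 306 of the 369 identifiers. Between the mock libraries the median was -0.11, and 105 of 369 were higher in rescue. WT over KO at 16 h, which uses the same KO library, had a median of 0.88. In mock WT over KO had a median of -0.24 (quartiles -0.54 and 0.04).

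Large differences of far signal ran in 1 direction. At 16 h, 41 of 369 long-span identifiers (11.1%) were at least 2-fold higher in rescue than in KO and 0 were at least 2-fold lower (0%). Between the mock libraries, which were both deeper than KO at 16 h, 0 passed that fold either way (0%). The part of depth in these counts was not tested. In WT over KO at 16 h 166 identifiers (45%) were at least 2-fold higher and 7 (1.9%) lower. When the signal of all 369 was pooled, so that the strongest regions weighed most, the log2 ratio of rescue over KO was 0.28 at 16 h and 0.02 in mock, and that of WT over KO was 0.33.

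The near share, the percentage of the 0 to 100 kb signal that lay within the first 25 kb, does not depend on how a library was scaled. Its median over the long-span identifiers was 45.4% in KO, 37.1% in rescue and 33.2% in WT at 16 h, against 30.2%, 29.2% and 32.4% in mock. KO at 16 h stood apart from the other 5 of these libraries, and rescue lay between KO and WT. The quartiles were 29.2% and 55.96% in KO and 27.1% and 46.6% in rescue, so the distributions overlapped widely. Identifier by identifier, the median difference of rescue minus KO was -5.67 points (quartiles -11.99 and 0.62), and rescue was lower for 264 of 369. In mock the median difference was -0.67 points with 220 of 369 lower. A difference of at least 10 points towards lower shares in rescue was found for 123 identifiers (33.3%) at 16 h and 4 (1.08%) in mock. In the other direction it was found for 5 (1.36%) and 3 (0.813%). The KO library at 16 h was shallower than both mock libraries, and the part of depth in these counts was not tested. WT lay at least 10 points below KO at 16 h for 180 identifiers (48.8%) and above it for 9 (2.44%). In mock the median of WT minus KO was 1.77 points (quartiles -1.76 and 6.11).

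**Figure D1:**
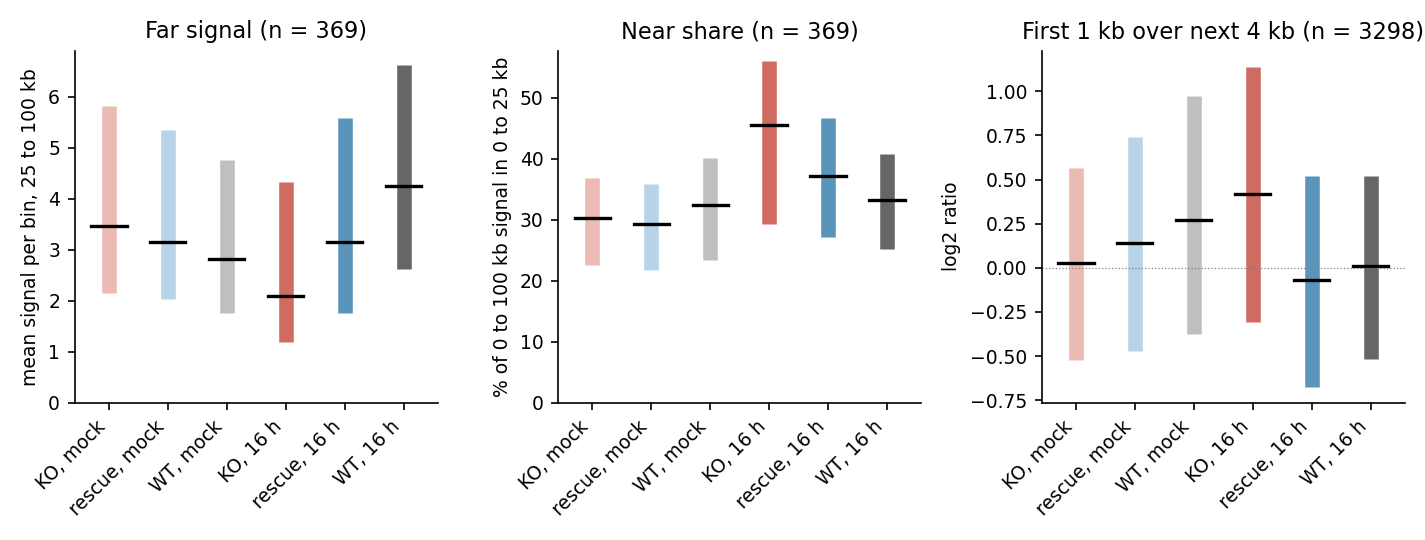
Far signal (mean signal per bin from 25 to 100 kb) and near share (%) of 369 long-span identifiers, and the log2 start ratio (first 1 kb over next 4 kb) of 3298 identifiers, in 6 libraries. Coloured bars run from the lower to the upper quartile over identifiers and black lines mark medians; KO at 16 h has the lowest far signal (2.08) and the highest near share (45.4%) and start ratio (0.42).

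**Figure D2:**
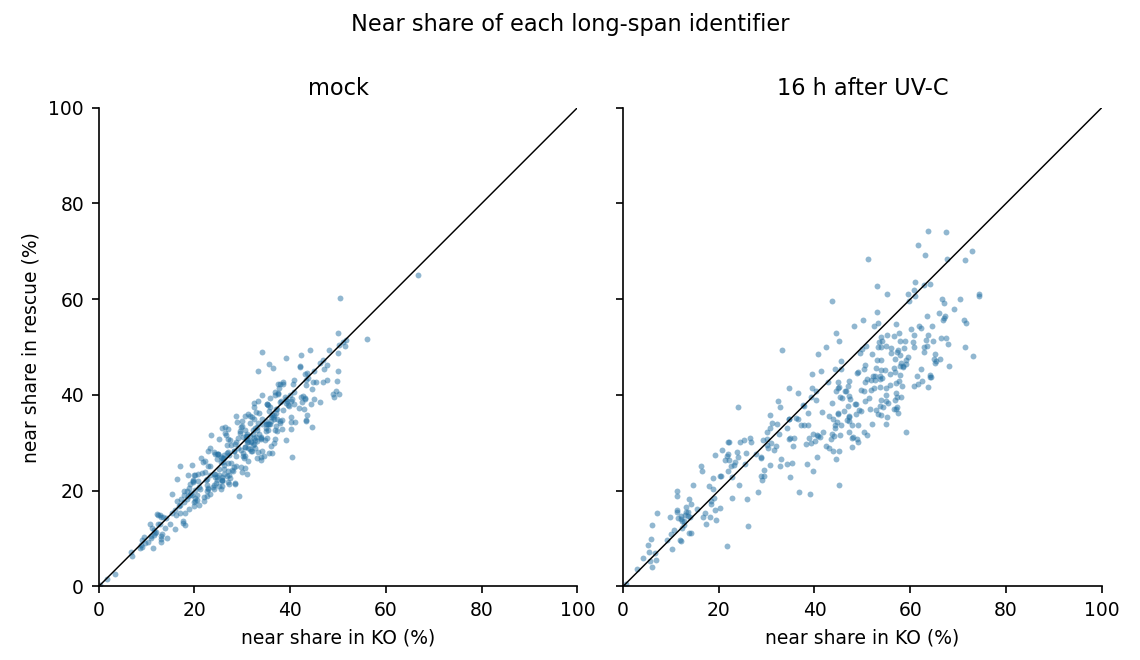
Near share (%) of each of 369 long-span identifiers in KO (horizontal axis) and rescue (vertical axis), in mock on the left and at 16 h on the right; each point is 1 identifier and the line marks equal shares. At 16 h 264 points lie below the line, many of them by 10 points or more, and in mock 220 lie below it, mostly close to the line.

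Along the long-span identifiers, the difference changed sign close to the start. In the first 5 kb the median log2 ratio of rescue over KO was -0.14 at 16 h, and in each of the other 19 windows of 5 kb it was above 0. It lay between 0.37 and 0.60 in every window from 25 kb on, and was highest from 75 to 80 kb. In mock the same ratio lay between -0.20 and -0.03, with 0 of 20 windows above 0. The median signal of the 95 to 100 kb window was 1.36 in KO, 2.06 in rescue and 2.73 in WT at 16 h, and 2.79 in KO and 2.502 in rescue in mock. In these medians rescue lay above KO and below both its own mock and WT. In the mean over identifiers, which the strongest weigh most in, rescue at 16 h had 4.89 in that window, above the 4.75 of WT and the 3.796 of KO.

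**Figure D3:**
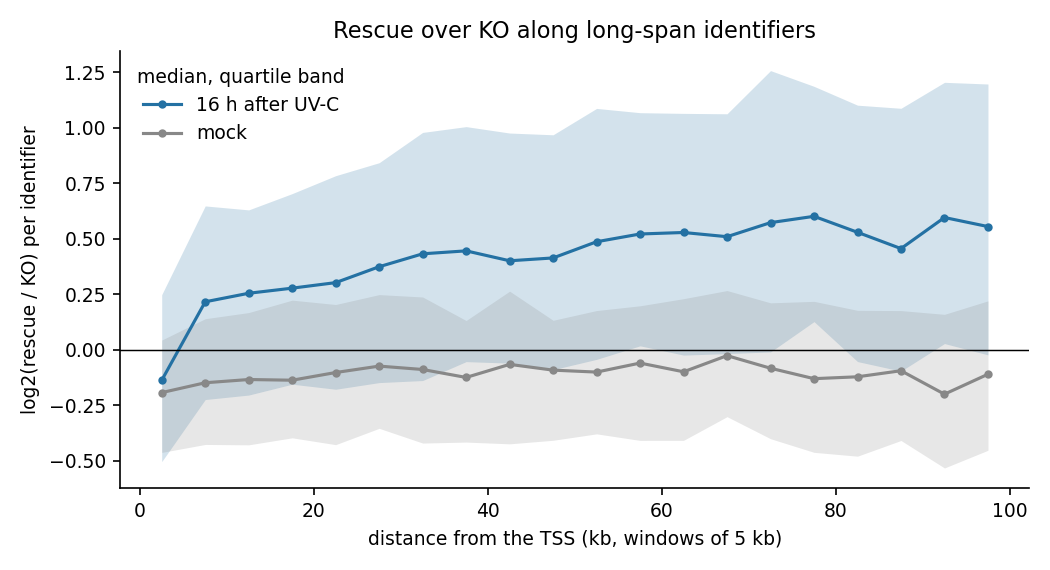
log2 ratio of rescue over KO in windows of 5 kb along the first 100 kb of 369 long-span identifiers, at 16 h (blue) and in mock (grey). Lines join the medians over identifiers and bands run between the quartiles; the 16 h line starts at -0.14 and stays between 0.37 and 0.60 from 25 kb on, while the mock line stays between -0.20 and -0.03.

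A larger share of signal away from the start in rescue than in KO at 16 h was also found in shorter regions. For identifiers with a quiet upstream flank, a span was read from the mock libraries as the unbroken run of 5-kb windows with signal, and the percentage of the span's signal beyond its midpoint was taken. For 728 identifiers with spans of 10 to 20 kb, the median at 16 h was 25.5% in KO, 30.9% in rescue and 34.9% in WT. In mock it was 30.8% in KO, 30.9% in rescue and 26.5% in WT. WT in mock thus lay close to KO at 16 h in this class. For 335 identifiers with spans reaching 100 kb, the median at 16 h was 32.6% in KO, 39.96% in rescue and 41.2% in WT. In mock it was 49.1% in KO, 49.02% in rescue and 47.8% in WT. The median difference of rescue minus KO was 5.17 points for spans of 10 to 20 kb, 4.64 points for the 867 spans of 25 to 45 kb, 4.53 points for the 562 spans of 50 to 95 kb and 5.32 points at 100 kb. The corresponding mock differences were -0.20, 1.28, 0.10 and 0.34 points. In each of the 4 classes between 70.4% and 72.8% of identifiers were higher in rescue at 16 h. In mock these shares were 48.5%, 59.6%, 50.9% and 52.8% from the shortest class to the longest. In the medians per identifier the difference was thus of similar size in every length class. Class medians at 16 h stood further apart from 50 kb on, at 28.9% in KO and 37.2% in rescue for 50 to 95 kb. Since gene ends were not known, a span can hold neighbouring genes.

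**Figure D4:**
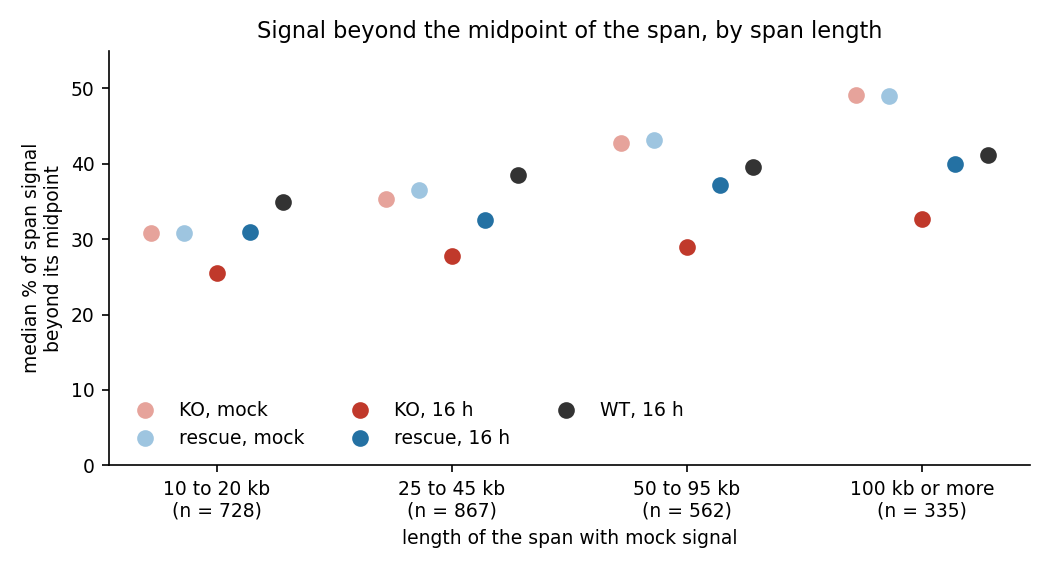
Median percentage of a span's signal that lies beyond its midpoint, for 4 classes of span length (horizontal axis), in 5 libraries. In each class the KO library at 16 h is the lowest point, between 25.5% and 32.6%, and rescue at 16 h lies above it and below WT at 16 h. WT in mock is not drawn and had 26.5% in the shortest class.

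The difference was larger where WT had gained more far signal. Long-span identifiers were split into 3 equal groups by the log2 change of far signal from WT mock to WT at 16 h, a measure that uses neither the KO nor the rescue libraries. In the 123 identifiers with the smallest WT change (up to 0.07), the near share of rescue minus KO had a median of -2.35 points. It was -6.44 points in the middle group and -9.87 points in the group with the largest WT change (0.80 or more). The last group had medians of 49.6% in KO and 38.6% in rescue at 16 h, and 100 of its 123 identifiers were lower in rescue. Its mock difference was -1.31 points, against -0.50 and -0.31 points in the other groups. Far signal followed in part, with medians of 0.29, 0.48 and 0.48 on the log2 scale.

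Near the start itself, the rescue line had less signal than the knockout. The start ratio was log2 of the mean signal in the first 1 kb over that from 1 to 5 kb. It was taken for 3298 identifiers whose mean signal over the 5 libraries reached 1 in both regions. These libraries were KO and rescue in both conditions and WT at 16 h. An identifier could therefore pass through a high KO value at 16 h, and the part of this filter in the differences was not tested. The first 1 kb covers the zone where polymerase is released from its promoter-proximal pause. Its median signal at 16 h was 12.5 in KO, 8.19 in rescue and 6.94 in WT, while that of the next 4 kb was 8.58 in KO, 8.88 in rescue and 7.196 in WT. From 5 to 25 kb the medians were 3.04, 3.65 and 4.06, so the order of the lines was the reverse of that in the first 1 kb. In mock, KO and rescue had 6.47 and 6.26 in the first 1 kb, 6.21 and 5.304 in the next 4 kb and 2.76 and 2.54 from 5 to 25 kb. WT in mock had 8.93, 6.77 and 2.48 in these regions, so its first 1 kb was above that of rescue at 16 h. The median start ratio was 0.42 in KO, -0.07 in rescue and 0.01 in WT at 16 h, and 0.03, 0.14 and 0.27 in mock. The rescue value lay below that of WT at 16 h, by less than the 2 lines differed in mock.

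Per identifier, the start ratio of rescue minus KO at 16 h had a median of -0.53 (quartiles -0.97 and -0.04), and 2534 of 3298 identifiers (76.8%) were lower in rescue. In mock the median was 0.12, in the opposite direction, with 1371 of 3298 lower. Over the 369 long-span identifiers, which were chosen on the mock libraries alone, the median was -0.50 at 16 h and 0.19 in mock. Of these 369, 288 were lower in rescue at 16 h and 144 in mock. Over the 3298, WT minus KO had a median of -0.42 at 16 h. In mock that median was 0.30 (quartiles -0.09 and 0.66). A 2-fold lower ratio in rescue was found for 777 identifiers (23.6%) at 16 h and 142 (4.31%) in mock, and a 2-fold higher ratio for 90 (2.73%) and 227 (6.88%). WT had a 2-fold lower ratio than KO at 16 h for 710 identifiers (21.5%) and a 2-fold higher one for 112 (3.4%). The KO library at 16 h was shallower than the mock libraries of KO and rescue, and the part of depth in these counts was not tested. The lower ratio held for weak and strong starts alike: over quartiles of mean mock level the median differences were -0.41, -0.60, -0.56 and -0.48, against 0.09, 0.18, 0.11 and 0.10 in mock. It also held in each span class, with medians of -0.52, -0.58, -0.60 and -0.55 from the shortest to the longest, against 0.08, 0.16, 0.21 and 0.13 in mock.

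Starts that already had a peak in WT without UV-C showed more of the difference. In 3 groups by the start ratio of the WT mock library, the median difference of rescue minus KO at 16 h was -0.37, -0.53 and -0.64 from the flattest to the most peaked, and the mock difference was 0.12 in each. In the most peaked group, 908 of 1100 identifiers were lower in rescue at 16 h, with median ratios of 1.29 in KO, 0.64 in rescue and 0.65 in WT.

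In finer steps, the lower signal of rescue lay mostly within 1 kb of the start. Each identifier's signal was divided by its own mean level over the 5 libraries. The mean from 0 to 1 kb was then 3.84 in KO, 2.62 in rescue and 2.10 in WT at 16 h. In mock it was 2.08 in KO, 1.99 in rescue and 2.96 in WT. The ratio of rescue to KO at 16 h was 0.682 there, against 0.957 in mock. It was 0.878 from 1 to 2 kb, close to the 0.879 of mock, and 1.03 from 2 to 3 kb and 1.15 from 5 to 10 kb, where mock had 0.889 and 0.921. Upstream, from 1 kb before the start to the start, it was 0.709, against 0.835 in mock. Signal on this side can come from divergent transcripts, and the sources used here do not give whether strand was used in the counting. The highest bin of the KO profile lay at 0.4 to 0.6 kb, with a relative signal of 4.66, where rescue had 3.03 and WT 2.48. The highest bin of WT at 16 h was the same one, and that of rescue lay at 1.0 to 1.2 kb, with 3.37 against 4.13 in KO. In mock these positions were exchanged, with 2.502 at 1.0 to 1.2 kb in KO and 2.36 at 0.4 to 0.6 kb in rescue, so the position of the highest bin followed no order of the lines.

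**Figure D5:**
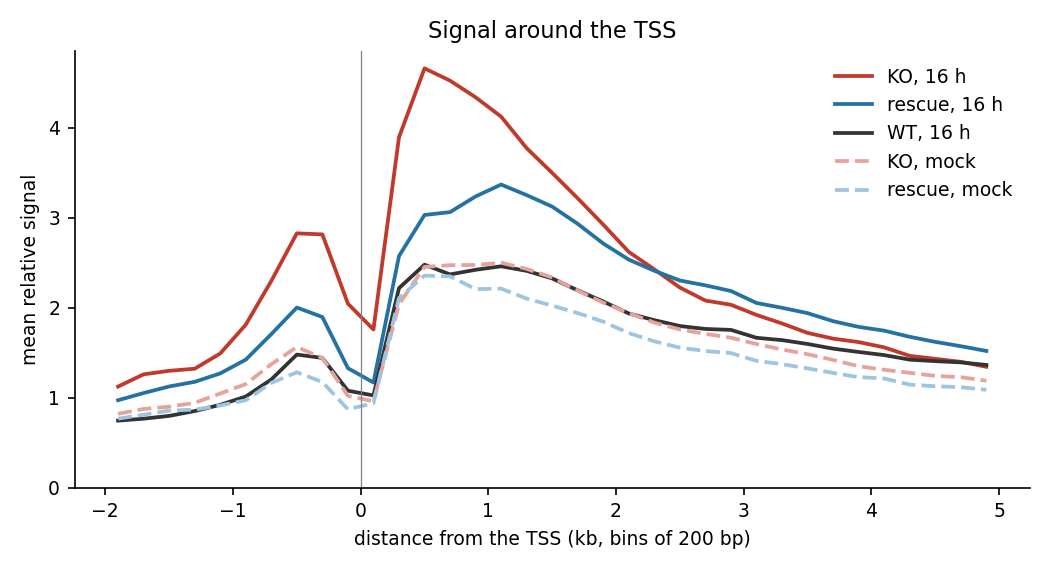
Mean relative signal (each identifier divided by its mean level over the 5 libraries) in bins of 200 bp from 2 kb before to 5 kb after the TSS, for 3298 identifiers, at 16 h (solid lines) and in mock (dashed lines). KO at 16 h peaks at 4.66 and rescue at 3.37; the lines of KO and rescue cross between 2 and 3 kb, and WT at 16 h runs close to KO in mock up to 2 kb. WT in mock is not drawn and had a highest bin of 3.70.

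The measures differed in how much of the distance from KO to WT the rescue line covered. Taking medians at 16 h, rescue covered 68.1% of the distance in near share, 57.7% in log2 far signal and 119.7% in start ratio. With each line's own mock value subtracted first, the shares were 50.7%, 55.1% and 91.9%. The near share had moved from mock to 16 h by 15.2 points in KO, 7.86 in rescue and 0.72 in WT. The start ratio had moved by 0.39, -0.21 and -0.26, and log2 far signal by -0.73, -0.0016 and 0.59, in the same order. The median far signal of rescue thus stood at its mock level, that of KO below its own and that of WT above its own. So on these medians the start ratio of rescue changed after UV-C in the direction of WT, and the near share changed in the direction of KO but less far. The same 332 identifiers with both measures gave 68.2% for near share and 113.8% for start ratio at 16 h, and 52.02% and 91.8% after subtraction. All these shares rest on library medians and differ with the set and the summary used. Over all 3649 identifiers past the level filter, near share gave 55.1%, or 35.04% after subtraction. Long-span log2 ratios of far signal over KO at 16 h were 0.44 in rescue and 0.88 in WT per identifier, but 0.28 and 0.33 pooled.

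The authors' deposited table of averaged profiles for 308 genes of 100 kb or more gave the same order of the lines in near share. In it the near share at 16 h was 56.97% in KO, 49.6% in rescue and 40.8% in WT, and 41.7%, 39.5% and 42.7% in mock. Rescue covered 45.5% of the distance from KO to WT in that table, or 30.3% after subtraction of mock, less than in the library files. The start ratio on the log2 scale was 0.80 in KO, 0.18 in rescue and 0.15 in WT at 16 h in the authors' deposited table, and rescue covered 96.4% of the distance, or 74.4% after subtraction. The first 1 kb stood at 18.8 in KO, 11.2 in rescue and 8.76 in WT. In the authors' deposited table the ratio of rescue to KO at 16 h ran from 0.822 in the first 5 kb to 1.72 from 95 to 100 kb, and was above 1 in 19 of 20 windows, against a range of 0.937 to 1.15 in mock with 18 of 20 above 1. The table gives no spread over genes.

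Levels, the mean signal per bin over the first 25 kb, differed much less between rescue and KO. Over the 3649 identifiers whose level averaged 1 or more in the 5 libraries, the median was 4.63 in KO, 4.81 in rescue and 4.78 in WT at 16 h, and 3.66 in KO and 3.32 in rescue in mock. The median log2 ratio of rescue over KO was 0.08 at 16 h (quartiles -0.27 and 0.43), with 2027 identifiers higher and 1622 lower, and -0.11 in mock, with 1268 higher and 2381 lower. The median at 16 h was -0.02 for identifiers whose level averaged 4 or more and -0.03 over the first 10 kb, so the level had no direction that held. WT over KO at 16 h had a median of -0.01.

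Single identifiers nevertheless differed more at 16 h than in mock. At least 2-fold higher levels in rescue were found for 190 identifiers (5.21%) and 2-fold lower levels for 116 (3.18%), against 9 (0.247%) and 18 (0.493%) between the mock libraries. The KO library at 16 h was shallower than the rescue library and both mock libraries, and the part of depth in these counts was not tested. With a pseudocount of 1 the counts were 50 higher and 71 lower at 16 h, and 4 and 2 in mock. WT over KO at 16 h gave 368 higher (10.1%) and 489 lower (13.4%). The same counts were not taken for WT over KO in mock. Its log2 ratios spread more (quartiles -0.38 and 0.43) than those of rescue over KO in mock (-0.30 and 0.09). The balance of directions moved with the filter on level: of the identifiers past the fold, 62.1% were higher in rescue, but 42.3% at a mean level of at least 4 (60 higher and 82 lower). With median scaling 53.97% were higher and with trimmed-mean scaling 52.98%. Across the 3649 identifiers, the log2 ratio at 16 h and that in mock, from 4 separate libraries, had a Pearson correlation of -0.06 and a Spearman correlation of -0.14, given as a description.

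The identifiers with the largest differences were taken from 1824 with a mean level of at least 4 and a mock log2 ratio within 0.5 of 0. The identifier uc002xlb.3 had levels of 44.3 in KO, 10.5 in rescue and 13.98 in WT at 16 h, and of 7.13, 8.01 and 19.95 in mock. The knockout at 16 h was the highest of these 6 libraries, and rescue and WT lay close together (log2 ratio of rescue over KO -2.07). Its first 1 kb stood at 105.3 in KO, 16.9 in rescue and 23.7 in WT. At 3 h after UV-C its level was 18.8 in KO, 15.6 in rescue and 45.3 in WT, so WT had reached at 3 h a level close to that of KO at 16 h. The identifier uc061ynp.1 had levels of 14.97 in KO, 3.92 in rescue and 2.37 in WT at 16 h, and of 2.69, 3.06 and 1.63 in mock (log2 ratio -1.91). Here too KO at 16 h was the highest of the 6, and 3 h after UV-C the levels were 8.59 in KO, 10.1 in rescue and 3.61 in WT.

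In the other direction, uc003lod.2 had levels of 1.77 in KO, 6.17 in rescue and 9.44 in WT at 16 h, and of 3.699, 3.34 and 5.90 in mock (log2 ratio of rescue over KO 1.75). The identifier uc001rks.4 had levels of 2.25, 7.45 and 10.5 at 16 h and of 3.78, 3.297 and 5.74 in mock (log2 ratio 1.68). For both, KO at 16 h was below its mock while rescue and WT at 16 h were above theirs. Their near share at 16 h was higher in rescue than in KO, unlike the long-span median. It was 25.5% against 9.33% for uc003lod.2 and 77.7% against 66.2% for uc001rks.4. For uc002xlb.3 and uc061ynp.1 it was lower in rescue. The far signal of uc003lod.2 at 16 h was 5.72 in KO and 5.998 in rescue, against 2.79 in KO in mock. Its first 1 kb held 0 in KO, 1.77 in rescue and 1.57 in WT at 16 h. Whether its level came from this start was not tested. At 3 h after UV-C the levels of uc003lod.2 were 1.83 in KO, 1.25 in rescue and 1.31 in WT, all below mock, so rescue and WT were higher at 16 h than at 3 h and KO was not. Those of uc001rks.4 were 1.72 in KO and 1.95 in rescue, below mock, and 6.19 in WT, above its mock. Each of the 4 levels of rescue at 16 h lay closer to WT than to KO, and the rule that chose the identifiers used the level difference itself.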

How the data were processed

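The 9 library files hold signal deposited by the authors as coverage in 200-bp bins around each TSS, per the file headers; within 0.02 of a step, each value was a whole number of the library's steps. A further 3 deposited tables hold mean signal profiles that the authors made over genes of at least 100, 50 and 25 kb. Tools listed in the submitters' processing notes, without their roles, were HOMER 4.8.2, STAR 2.7.7a, R 4.0.5, Trim Galore 0.6.5 and FastQC 0.11.9, and the builds hg38 and GRCh38. Groups came from the sample titles.

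Values were computed with Python 3.11.15, numpy 2.4.6 and pandas 2.3.3. Level and far ratios were log2((x + 0.1)/(y + 0.1)), so that differences of low identifiers are understated, and start ratios used a pseudocount of 1. Level comparisons used 8375 identifiers in all 5 libraries and long-span and start sets 8282 also in WT mock. The level and start filters averaged the 5 libraries, so an identifier could pass them through a high value in a library under comparison. Long-span identifiers had a mock mean of at least 0.5 in each 5-kb window, none at 6 times the median or more, and upstream signal (5 to 1 kb before the TSS) under 0.5 times the median. Span windows had a mock mean of at least 0.5 and at least 10% of the higher of the first 2 windows. Named identifiers were the 2 highest and 2 lowest log2 level ratios with a mean level of at least 4 and a mock difference within 0.5. The measures were tried on simulated data, drawn bin by bin from the mock signal at the depths of the KO and rescue libraries at 16 h. This asked whether planted changes of level, far signal and start ratio were recovered, for the start ratio only above a higher floor than that used here. It holds no variation between real libraries. The members and lists were chosen with earlier results of these data known. Tested alternatives were filters, pseudocounts, windows, scaling and pooling; median scaling set the median level equal, and trimmed-mean scaling the trimmed mean of log ratios to WT mock.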

Additional observations from a re-analysis of the deposited data

Results flagged for a closer look

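For 3 measures the difference between rescue and KO had opposite signs at 16 h and in mock. The median log2 level ratio was 0.078 at 16 h and -0.11 in mock. The median log2 far signal ratio was 0.44 at 16 h and -0.11 in mock, and the median start ratio difference was -0.53 at 16 h and 0.12 in mock. Each value compares 1 library with 1 other, and the difference between the conditions was not tested. Under median scaling, which brings median level ratios close to 0 by its construction, the level medians were 0.03 at 16 h and 0.03 in mock, and the far signal medians 0.38 and 0.03, so neither pair was opposite. Under trimmed-mean scaling both pairs stayed opposite, at 0.02 and -0.01 for the level and 0.38 and -0.0048 for far signal. Under the authors' scaling, identifiers whose level averaged 4 or more had level medians of the same sign, -0.02 and -0.10. The pooled far signal of the long-span identifiers also had the same sign, at 0.28 at 16 h and 0.02 in mock. In the authors' averages for genes of 100 kb or more, the far signal ratio of rescue to KO was above 1 in both, at 1.34 and 1.06. The depths ran in opposite directions too: at 16 h rescue was 3.41 times deeper than KO, and in mock KO was 2.10 times deeper than rescue. The part of depth in these signs was not tested.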

How the results depend on the processing

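No paired analysis was possible because each group was 1 library and no fit was made, and for the same reason no library could be left out. Of 41 alternatives, 22 stayed within the size of the mock difference of the same measure (or within 1.5 times a count), 17 moved by more and 2 changed sign. The sign changes were in the median level ratio, at -0.021 with a mean level of at least 4 and -0.025 over the first 10 kb. The 306 identifiers past 2-fold (8.39% of 3649) became 1030 at 1.5-fold (28.2%), 8 at 4-fold (0.219%) and 121 with a pseudocount of 1 (3.32%). In sets of other sizes they became 691 of 8375 with no filter (8.25%) and 142 of 1983 at a mean level of at least 4 (7.16%). These last 2 counts moved with the size of the set, while their shares changed little. With at least 100 steps in KO at 16 h they were 187 of 3131 (5.97%). That filter removes identifiers low in KO by its construction. The far signal ratio kept its direction, at 0.28 pooled and 0.14 over all 3649 identifiers past the level filter. The near share difference kept its direction too, at -4.60 points with a near window of 10 kb, -4.40 pooled, -4.56 for 279 long-span identifiers chosen on all 9 libraries, -1.01 over all identifiers past the level filter, -7.90 and -3.15 for the 185 identifiers of higher and the 184 of lower mean level, and -6.71 with at least 400 steps in KO at 16 h. The start ratio difference was -0.38 with a pseudocount of 4. In the authors' averages the near share difference was -3.95 points for genes of 25 kb or more. Such genes can end before 100 kb, so this is not the same measure as for genes of 100 kb or more. The causes were not tested. The threshold of steps, and the groups by span, by WT change and by WT start ratio, were chosen after seeing the data. The shallow KO library at 16 h, with a step of 1.89, limits what can be said of single identifiers.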

Other observations

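In the authors' deposited table for 787 genes of 50 kb or more, 1 stretch of the averaged profile stood apart from the rest. From 65 to 70 kb the mean signal at 16 h was 5.69 in KO, 5.35 in WT and 3.15 in rescue, against a range from 2.53 to 3.14 in the 3 mock libraries. The highest bin there reached 74.3 in KO, 48.9 in WT and 19.6 in rescue at 16 h, where the median bin was 1.54, 2.83 and 2.21, and 2 bins in each were above 2 times that median. The mock libraries had a lower peak at the same stretch, with a highest bin of 7.07 in KO, 10.6 in rescue and 8.85 in WT against median bins of 2.66, 2.72 and 2.16. The table for genes of 25 kb or more had the same stretch, with a highest bin of 41.5 in KO at 16 h. In the table for genes of 100 kb or more 0 bins of this stretch were above 2 times the median in KO, rescue or WT at 16 h. Left out of the 50 kb table, a choice made after seeing the data, it changed the near share of KO at 16 h from 48.5% to 53.9% and that of rescue from 42.7% to 44.97%. The difference of rescue minus KO went from -5.81 to -8.97 points, and the part of the distance from KO to WT that rescue covered from 55.9% to 69.2%. For genes of 100 kb or more the same step left the difference at -7.26 points, against -7.37 with all windows. Genes in the 50 kb table can end before 100 kb, so the near shares of these tables are not the same measure.

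Identifiers present in only 1 of the 16 h files carried little signal. Of 583 in the rescue file alone, 4 had a level above 0.1 and the highest was 7.24, and of 144 in the KO file alone 0 did, with a highest level of 0.0906. A further 1355 identifiers were in both files with no signal from 0 to 25 kb in either.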
